A study of Bos taurus and Bubalus bubalis with 9 samples.

Results

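Circular RNAs (circRNAs) hosted by genes of the main serine/threonine kinase families were examined in the muscle of buffalo and cattle and in the fat of cattle. A host gene was taken as a member when its symbol began with MAPK, MAP2K, MAP3K, MAP4K, STK, TAOK, CDK, CSNK, PRKA, PRKC, PRKD, ROCK or WNK, or with MARK and a digit. This gave 361 distinct back-splice junctions of 24221 in the circRNA tables of both species, and 81 host genes of 5649. The cattle table held 273 of the junctions among its 18535, and the buffalo table held 176 among its 10701, of which 76 had a read in buffalo muscle. Of the 81 hosts, 72 encode a catalytic kinase subunit and 4 encode a regulatory subunit (PRKAR1A, PRKAR2A, PRKAR2B and PRKAG3). The remaining 5 fit the naming rule but encode no kinase (CDK5RAP1, CDK5RAP2, CDKAL1, CDKN3 and MAPKAP1). At least 1 junction read in the libraries used was found for 75 hosts, and CSNK2A2, MAP2K7, MAP3K11, PRKAR2B, STK32A and WNK3 had none.

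A circRNA arises when the spliceosome joins the 5′ splice site (donor) at the end of an exon to a 3′ splice site (acceptor) upstream of it, so that a read across the junction shows exons in reversed order. The closed ring lacks free ends, resists exonucleases and is usually longer lived than the linear mRNA of the same gene. The host kinases pass signals by phosphorylating serine and threonine, among them the mitogen-activated protein kinase (MAPK) cascades of stress and growth signalling, the energy sensor AMP-activated protein kinase (AMPK), protein kinases A and C, the casein kinases, the cyclin-dependent kinases, and the Hippo pathway kinases.

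The libraries came from longissimus dorsi muscle of 3 Xinyang buffalo (Bubalus bubalis, labelled as low in intramuscular fat) and from the same muscle and back subcutaneous fat of 3 Nanyang cattle (Bos taurus, labelled as high). All animals had been weaned at 3 months, castrated at 6 months, fattened from 18 months and slaughtered at 30 months, and each species was kept on its own farm, so species and farm cannot be told apart. No genetic modification or drug was applied, and 3 libraries per group were sequenced, 9 in all. Cattle muscle and cattle adipose tissue stand in 1 table and were tested against each other, whereas buffalo muscle stands in another, so that its levels are set beside those of cattle without a test, and the one quantity tested across the tables was the share of a host's reads in 1 junction.

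Depth differed between the tables. Derived library sizes were 60.0 M to 65.8 M reads in buffalo muscle and 35.7 M to 42.3 M in cattle (M, 1e+06 reads), while the summed junction reads ran from 4472 to 6122 in buffalo, from 15440 to 27141 in cattle muscle, and from 12042 to 21053 in fat. Values are RPM (reads per M library reads), and 1 junction read was worth 0.0152 to 0.0280 RPM, so the lowest levels below are single reads. The tissue labels were checked on marker hosts: circRNAs of the 14 skeletal muscle genes listed (with reads for 8 of them in cattle muscle, and for 3 in fat) summed to 31.7 to 43.0 RPM in cattle muscle, 12.9 to 14.6 RPM in buffalo muscle and 0.217 to 0.430 RPM in cattle adipose tissue. NEB, which encodes the thin filament protein nebulin, was at 16.1 to 22.9 RPM in cattle muscle and at 0 to 0.0269 RPM in adipose tissue. The 15 adipocyte genes listed (9 with reads in adipose tissue) summed to 1.57 to 2.55 RPM in cattle adipose tissue and 0.423 to 0.710 RPM in cattle muscle, with no read for ADIPOQ, FASN, LIPE or SCD.

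Kinase hosts contributed 96, 118 and 68 junction reads in the buffalo libraries, 304, 432 and 386 in those of cattle muscle, and 291, 522 and 345 in those of fat. As a share of all junction reads this was 1.81%, 1.93% and 1.52% in buffalo, 1.97%, 1.59% and 1.76% in cattle muscle, and 2.42%, 2.48% and 2.44% in adipose tissue. The shares of both muscles overlapped, and each adipose library lay above each muscle library. The mean share was 2.44% ± 0.03 (SD, n = 3) in the fat of cattle, 1.77% ± 0.19 (SD, n = 3) in their muscle and 1.75% ± 0.21 (SD, n = 3) in buffalo, and this difference was described without a test. Skeletal muscle marker hosts, which enter the denominator, summed to 12.9 to 14.6 RPM in buffalo muscle, where all junctions had a mean of 83.7 RPM. In cattle muscle they summed to 31.7 to 43.0 RPM, beside a mean of 555 RPM for all junctions. In fat they summed to 0.217 to 0.430 RPM, beside a mean of 419 RPM. Their part in the difference was not tested.

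**Figure D1:**
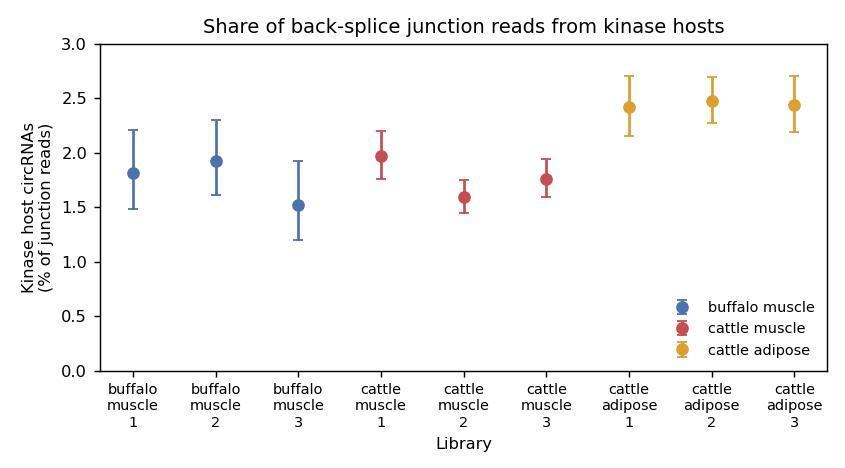
Share of all back-splice junction reads (percent, y axis) that came from kinase hosts in each of the 9 libraries (x axis). Points are libraries and bars are 95% Wilson binomial intervals, which cover counting error only. The 3 adipose libraries sit between 2.42% and 2.48%, above the 6 muscle libraries at 1.52% to 1.97%.

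By number rather than reads, 76 kinase junctions from 45 hosts were detected in buffalo, 176 from 67 hosts in cattle muscle and 178 from 62 hosts in fat. Kinase junctions made up 1.60%, 1.47% and 1.58% of the circRNAs detected in these groups, close to each other in each. Few junctions were seen in every animal: 10 of 76 (13.2%) in buffalo, 30 of 176 (17.0%) in cattle muscle and 31 of 178 (17.4%) in fat, beside 8.32%, 12.2% and 10.1% of all circRNAs. A junction with no read in a library may have been present at up to 0.0456 to 0.0840 RPM, the level of 3 reads, so that absence cannot be read from a 0 at this depth. The RefSeq annotation names 171 protein-coding genes that fit the rule, and 43.9% of these had a junction read in the 9 libraries, beside 22.0% of all 21666 protein-coding genes. All annotated genes whose names start with TAOK (3), PRKD (4, with PRKDC of the DNA-dependent protein kinase) or ROCK (2) were hosts with reads, against 22.7% of the genes whose names start with MAPK.

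Reads were concentrated in a few hosts. MAPK8 and PRKAA2 together held 27.9% to 41.7% of kinase reads in buffalo, 28.9% to 45.7% in cattle muscle and 21.8% to 25.5% in fat. At least 10 reads over the 3 libraries were present for 5 hosts in buffalo, 24 in cattle muscle and 26 in fat. The other hosts are known from very few reads, and 13 hosts in buffalo muscle rested on 1 read.

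**Figure D2:**
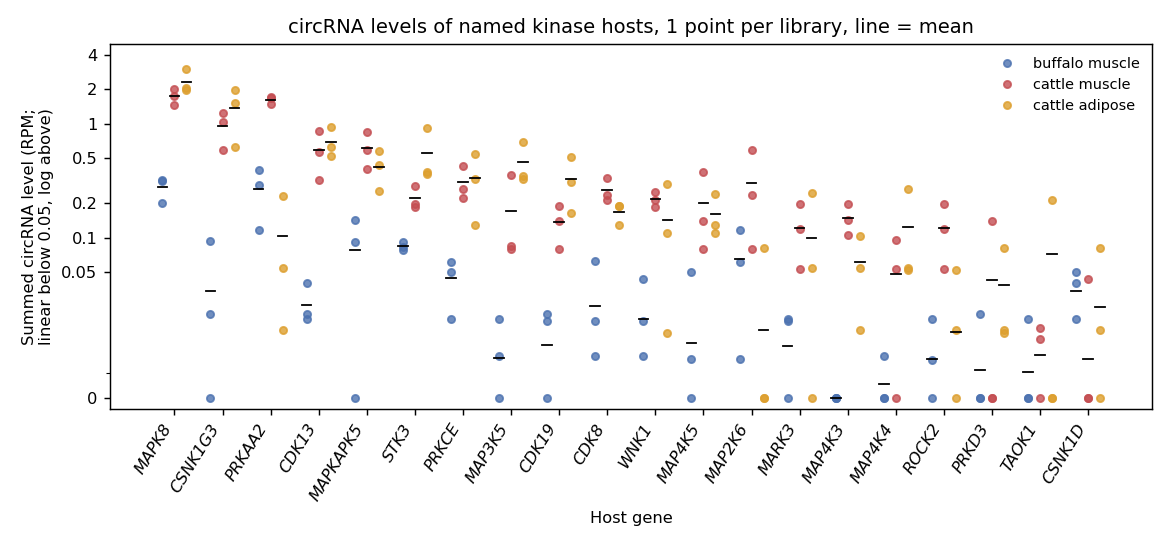
Summed circRNA level (RPM, y axis, linear below 0.05 and logarithmic above) of 20 kinase hosts (x axis), with 1 point per library and a line at the mean of 3 libraries. MAPK8 is the highest host in each group by mean. PRKAA2 is high in both muscles relative to other hosts but low in cattle adipose tissue, at 0.0271 to 0.232 RPM.

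To ask which kinase hosts differed between cattle muscle and cattle adipose tissue, the junction levels of each host were summed and log2(RPM + 0.1) was tested with limma, over all hosts with at least 2 reads in 3 or more of the 6 libraries. Of the 74 kinase hosts in the cattle table, 35 passed this filter on low values. PRKAA2 was higher in muscle and was the only kinase host called, and with the replicate number of the labels as a block MAP2K6 was called as well. Of all 1917 hosts tested, 5.22% were called higher in muscle (100) and 1.72% higher in adipose tissue (33), 6.94% in either direction, so 1 call among 35 kinase hosts was not above the background. No kinase host was called higher in adipose tissue by limma on this scale, by edgeR or by DESeq2. With each library divided by its junction total, limma called 3 (next paragraph). An unadjusted limma p below 0.05 on the main scale was found for 3 hosts in each direction. In muscle these were PRKAA2, MAP2K6 and WNK2, the last of which passed the filter through muscle alone. MAP2K6, with 0, 3 and 0 adipose reads, would not have passed without its muscle libraries. Nor would PRKAA2, with 1, 2 and 9, but it was also called with no filter (limma adjusted p = 0.00487). Of all hosts tested, 11.5% had an unadjusted p below 0.05 in the muscle direction and 6.42% in the adipose direction.

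The kinase hosts tested had a median log2 difference (muscle minus adipose) of -0.20, with 14 above 0 and 21 below, beside a median of 0.02 and 51.1% above 0 for all hosts. All 3 muscle values lay above all 3 adipose values for 5 of 35 (14.3%, against 12.8% of all hosts tested): PRKAA2, WNK2, ROCK2, MAP4K3 and CDK8. For WNK2 this follows from the filter, since it had no adipose read. PRKAA2, ROCK2 and MAP4K3 also needed their muscle libraries to pass the filter. The reverse held for MAPKAP1 and STK3, 2 of 35 (5.71%, against 8.19% of all hosts tested). MAPKAP1 passed the filter only with its adipose libraries. Dividing by the junction total of each library in place of the whole library shifted the median of all hosts by 0.20 towards adipose tissue and turned the calls from 100 against 33 to 89 against 85. On that scale MAP3K5, MAPKAP1 and STK3 were called higher in adipose tissue and PRKAA2 and MAP2K6 higher in muscle.

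**Figure D3:**
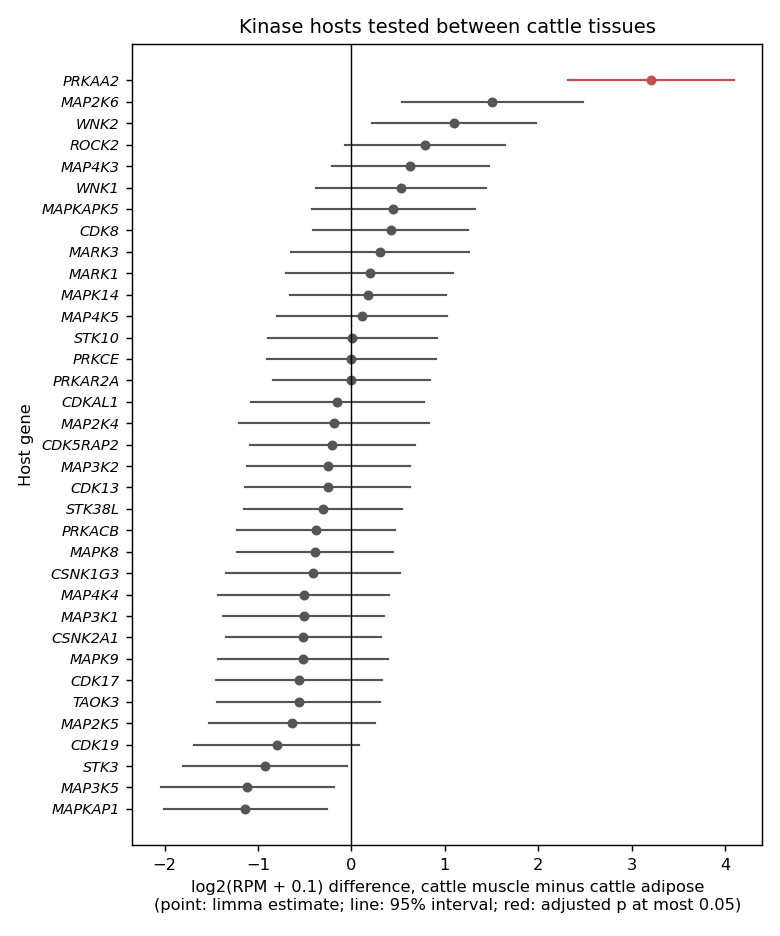
Difference in log2(RPM + 0.1) between cattle muscle and cattle adipose tissue (x axis, positive when higher in muscle) for the 35 kinase hosts tested (y axis). Points are limma estimates from 3 against 3 libraries, lines are 95% intervals, and red marks an adjusted p of at most 0.05. PRKAA2, at 3.20, is the red point, WNK2 passed the filter through muscle alone, and the intervals of most other hosts include 0. Some other hosts, among them MAP2K6, ROCK2 and MAPKAP1, passed the filter only with the tissue where they were higher.

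PRKAA2 (ENSBTAG00000018747, chromosome 3, minus strand) encodes the alpha-2 catalytic subunit of AMPK, the form that prevails in skeletal muscle and restrains fat synthesis when energy is low. Its circRNAs were at 1.67, 1.49 and 1.71 RPM in cattle muscle, 0.0271, 0.0538 and 0.232 RPM in cattle adipose tissue, and 0.289, 0.393 and 0.117 RPM in buffalo muscle. Each cattle muscle library lay above each adipose library, and adipose library 3 held 9 of the 12 adipose reads. The mean was 1.62 ± 0.12 RPM (SD, n = 3) in cattle muscle and 0.104 ± 0.111 RPM (SD, n = 3) in adipose tissue, which is 15.6-fold, and the difference was 3.20 on the log2(RPM + 0.1) scale (SE 0.43, limma adjusted p = 1.73e-05). It remained between 2.93 and 3.62 when any 1 library was left out, was 1.25 with a pseudocount of 1 RPM, and the ratio of means was 40.1-fold without adipose library 3. Skeletal muscle marker hosts moved in the same direction, and in these bulk samples fewer muscle fibres and less circRNA per cell cannot be told apart.

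Both main PRKAA2 circRNAs differed between the tissues. They use the same donor at 90067869 on chromosome 3 (UMD3.1), and all 199 PRKAA2 reads in cattle and all 51 in buffalo muscle ended there. The longer junction, from 90067869 to 90085122 (a span of 17254 bases of exonic type), was at 0.767, 0.852 and 0.812 RPM in cattle muscle, 0, 0.0538 and 0.129 RPM in adipose tissue, and 0.198, 0.267 and 0.0833 RPM in buffalo muscle. The shorter one, from 90067869 to 90072415 (4547 bases), was at 0.900, 0.497 and 0.896 RPM in cattle muscle, 0.0271, 0 and 0.103 RPM in adipose tissue, and 0.0912, 0.126 and 0.0333 RPM in buffalo muscle. For both, no adipose library reached any cattle muscle library. Both passed the filter only with their muscle libraries, and both were also called with no filter. The log2 differences were 2.58 (SE 0.38, limma adjusted p = 0.00134) and 2.62 (SE 0.39, limma adjusted p = 0.00156). These were the calls among the 37 kinase junctions tested one by one, 2 of 37, beside 5.53% of the 1917 junctions tested that were higher in muscle, 0.887% that were higher in adipose tissue and 6.42% in either direction, a share near that background. Another PRKAA2 junction, from 90067869 to 90071744, had 6 reads, all in cattle muscle library 2.

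**Figure D4:**
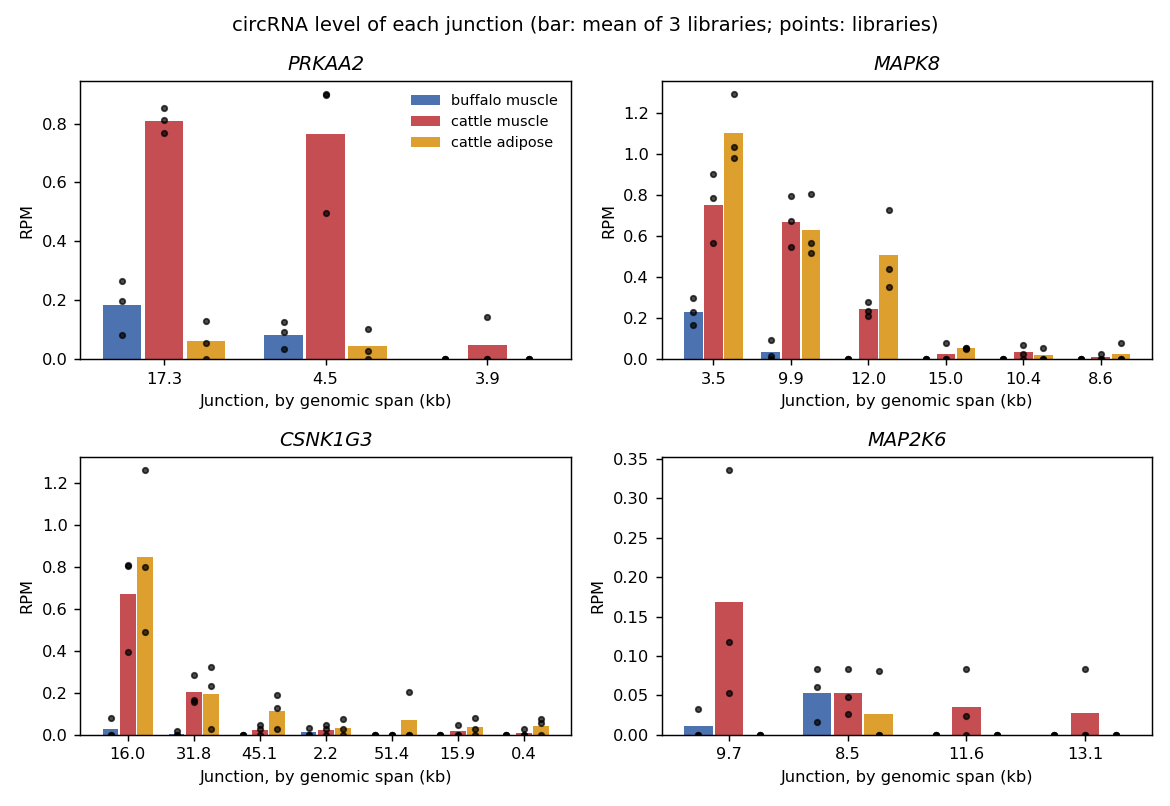
Level (RPM, y axis) of each junction with at least 3 reads in PRKAA2, MAPK8, CSNK1G3 and MAP2K6, ordered by reads and labelled by genomic span in kilobases (x axis). Bars are means of 3 libraries and points are libraries. Both PRKAA2 circRNAs are high in cattle muscle, and 1 MAPK8 junction of 3472 bases holds most buffalo reads of its host.

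The other PRKA hosts were far lower than PRKAA2 in both muscles. In adipose tissue, PRKACB and PRKAR2A, with means of 0.115 and 0.123 RPM, were near PRKAA2 at 0.104 RPM, while the others had at most 1 read. PRKAA1, the alpha-1 catalytic subunit of AMPK, had 0, 0.213 and 0.0560 RPM in cattle muscle, no read in the 3 adipose libraries, and 0.0456, 0.0471 and 0 RPM in buffalo muscle. Its muscle level was at least 3.37-fold the level of 3 reads over the adipose group, with 9 of its 11 cattle reads in library 2, without which the bound was 1.05-fold, and it did not pass the filter for a test. PRKAA1 was singled out after its values were seen. PRKACB, a catalytic subunit of the cyclic AMP-dependent protein kinase, differed by -0.38 (SE 0.41, limma adjusted p = 0.723) and its regulatory partner PRKAR2A by 0.00 (SE 0.41, limma adjusted p = 0.997). Summed over its 8 hosts, the PRKA group was at 1.83, 1.92 and 2.07 RPM in cattle muscle and 0.163, 0.376 and 0.515 RPM in adipose tissue, and PRKAA2 gave most of it in muscle but 12 of the 40 reads in adipose tissue.

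MAPK8 (ENSBTAG00000007876, chromosome 28, plus strand), which encodes the stress-activated kinase JNK1, was the most abundant kinase host in all 3 groups by mean. In library 2 of each muscle, PRKAA2 was higher (0.393 RPM in buffalo muscle and 1.49 RPM in cattle muscle). Its circRNAs were at 2.01, 1.47 and 1.74 RPM in cattle muscle, 1.95, 3.01 and 2.03 RPM in adipose tissue, and 0.319, 0.314 and 0.2 RPM in buffalo muscle. The cattle tissues overlapped, and the log2 difference of -0.39 (SE 0.40, limma adjusted p = 0.709) had a 95% interval from -1.22 to 0.45, which leaves room for differences of either sign. In cattle, 97.0% of its 463 reads used the donor at 43170732, shared by 4 of 7 junctions, and in buffalo muscle 96.2% of 53 reads did so.

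These MAPK8 junctions differ in the acceptor. The junction from 43167261 to 43170732 (3472 bases) was the most read one and took 71.4%, 95% and 83.3% of MAPK8 reads in buffalo, 44.7%, 38.7% and 45.2% in cattle muscle, and 52.8%, 42.9% and 48.1% in fat. The buffalo libraries lay above all cattle muscle libraries, while the cattle tissues overlapped. The mean share was 83.3% ± 11.8 (SD, n = 3) in buffalo against 42.9% ± 3.6 (SD, n = 3) in cattle muscle, with an exact two-sided permutation p = 0.1, the smallest that 3 against 3 libraries can give (0.25 after Benjamini-Hochberg adjustment over 5 such comparisons, those of hosts with at least 10 reads in every library). The junction from 43160810 (9923 bases) held 39.5%, 37.1% and 38.7% of MAPK8 reads in cattle muscle and 28.6%, 5% and 0% in buffalo muscle. A junction from 43158748, annotated as exon and intron (11985 bases), held 10.5%, 16.1% and 16.1% in cattle muscle, 18.1%, 24.1% and 21.5% in adipose tissue, and none of the buffalo muscle reads. Reads of both species had been aligned to the cattle genome, and the part of this in the species difference was not tested.

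Among the other genes whose names start with MAPK, MAPKAPK5, a kinase activated by MAPKs, was at 0.582, 0.402 and 0.840 RPM in cattle muscle, 0.570, 0.430 and 0.257 RPM in adipose tissue, and 0.0912, 0.141 and 0 RPM in buffalo muscle. The cattle tissues overlapped (log2 difference 0.45, SE 0.42, limma adjusted p = 0.672). Its main junction, on chromosome 17 from 64524624 to 64530237, held 63.6%, 64.7% and 46.7% of its reads in cattle muscle and 66.7%, 87.5% and 90.0% in adipose tissue, without overlap (exact two-sided permutation p = 0.1, adjusted p = 0.25). The stress kinases MAPK14 (p38 alpha) and MAPK9 (JNK2) differed by 0.18 (SE 0.40, limma adjusted p = 0.860) and -0.52 (SE 0.44, limma adjusted p = 0.627). MAPK14 had no junction read in buffalo muscle.

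Upstream in the cascade, MAP2K6, which phosphorylates and activates p38 kinases, was at 0.0794, 0.237 and 0.588 RPM in cattle muscle, 0, 0.0807 and 0 RPM in adipose tissue, and 0.0608, 0.0157 and 0.117 RPM in buffalo muscle. Muscle library 1 lay just below adipose library 2, so the groups overlapped at that point, with 34 reads against 3 in all. Pooled, this is an 11.0-fold ratio with a 95% counting interval from 3.47 to 56.2. All 3 adipose reads came from library 2, and muscle library 3 held 21 of the 34 muscle reads, so the ratio depends on single libraries. The log2 difference of 1.51 (SE 0.47) had a limma adjusted p = 0.0524, just outside the threshold, and the call depended on the setting. It was called with edgeR (adjusted p = 0.0101), on the junction total scale (limma adjusted p = 0.0430) and with the replicate number as a block (limma adjusted p = 0.0173), but not with DESeq2 (adjusted p = 0.0601), a pseudocount of 1 RPM (limma adjusted p = 0.312) or no filter on low values (limma adjusted p = 0.256). Leaving out 1 library gave limma adjusted p = 0.00422 without cattle muscle 1 and 0.0240 without adipose 2, and 0.0635 to 0.396 without any 1 of the other 4. Its most read junction, on chromosome 19 from 61715142 to 61724809, had 0.0529, 0.118 and 0.336 RPM in cattle muscle and no read in adipose tissue. This junction passed the filter on low values through muscle alone, so nothing is read from its test. The host itself passed that filter only with its muscle libraries, so no support is drawn from its tests.

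MAP3K5, the stress-responsive kinase ASK1 that acts above JNK and p38, was at 0.0794, 0.355 and 0.0840 RPM in cattle muscle and 0.326, 0.349 and 0.695 RPM in adipose tissue. Muscle library 2 fell among the adipose values, and the log2 difference of -1.11 (SE 0.45) had a limma adjusted p = 0.165. MAP3K5 had the most junctions of any kinase host, 13 in cattle, and 84.9% of its 73 reads shared the acceptor at 75686032 on chromosome 9. In buffalo muscle, 3 reads came from 1 junction with that acceptor. All 3 MAP3K hosts tested were below 0 in muscle minus adipose, none of them called in the main test. On the junction total scale, MAP3K5 was called higher in adipose tissue (limma adjusted p = 0.0373).

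The MAP4K hosts stand at the top of these cascades. MAP4K3, a kinase linked to amino acid sensing, was at 0.106, 0.142 and 0.196 RPM in cattle muscle and 0.0543, 0.0269 and 0.103 RPM in adipose tissue, and no read was found in buffalo muscle. The tissues did not overlap, and the log2 difference of 0.63 (SE 0.41) had a limma adjusted p = 0.468. MAP4K3 had 10 junctions in cattle, few of them well read, since its cattle reads numbered 17 and 7. MAP4K4 differed by -0.51 (SE 0.45, limma adjusted p = 0.639). MAP4K5 differed by 0.11 (SE 0.44, limma adjusted p = 0.923) and by -0.15 on the junction total scale. TAOK1, also placed upstream of p38, had 2 reads in each muscle group and 8 in adipose library 2 alone.

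Casein kinase 1 gamma 3, encoded by CSNK1G3 (ENSBTAG00000017550, chromosome 7, minus strand) and acting at the membrane in Wnt signalling, was the second most abundant host in adipose tissue and the third in cattle muscle. It was at 0.582, 1.23 and 1.04 RPM in cattle muscle, 0.624, 1.96 and 1.52 RPM in adipose tissue, and 0, 0.0942 and 0.0333 RPM in buffalo muscle. The cattle tissues overlapped (log2 difference -0.41, SE 0.45, limma adjusted p = 0.724). Of its 266 cattle reads, 95.1% used the acceptor at 31547896, shared by 7 of 9 junctions, and the junction from 31531940 to 31547896 (15957 bases) held 52.5% to 78.4% of its reads in a library. As a share of all junction reads it was 0.142%, 0.192% and 0.169% in cattle muscle and 0%, 0.0980% and 0.0447% in buffalo muscle. CSNK1D, a clock-related casein kinase, went the other way. It took 0.0566%, 0.0327% and 0.0671% of junction reads in buffalo muscle, against 0%, 0.00737% and 0% in cattle muscle, on 8 and 2 reads.

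Among the cyclin-dependent kinases, CDK13, which phosphorylates RNA polymerase II, was the most abundant. It was at 0.317, 0.568 and 0.868 RPM in cattle muscle, 0.516, 0.941 and 0.618 RPM in adipose tissue, and 0.0456, 0.0314 and 0.0333 RPM in buffalo muscle. A single junction on chromosome 4, from 81762585 to 81772269, held all of its reads in buffalo muscle and 93.5% to 100% in each cattle library. The tissues overlapped (log2 difference -0.26, SE 0.43, limma adjusted p = 0.817). The kinases of the Mediator complex, CDK8 and CDK19, lay on different sides of 0. CDK8 was at 0.212, 0.237 and 0.336 RPM in cattle muscle and 0.190, 0.188 and 0.129 RPM in adipose tissue, without overlap (log2 difference 0.42, SE 0.40, limma adjusted p = 0.676). CDK19 was at 0.0794, 0.189 and 0.140 RPM in muscle and 0.163, 0.511 and 0.309 RPM in adipose tissue (log2 difference -0.80, SE 0.43, limma adjusted p = 0.346). Of the 6 CDK-named hosts tested, 1 was above 0 and 5 below, with none called, beside 51.1% above 0 for all hosts. The 5 below include CDK5RAP2 and CDKAL1, which encode no kinase.

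STK3, the Hippo pathway kinase MST2 that restrains growth, was at 0.185, 0.284 and 0.196 RPM in cattle muscle, 0.380, 0.914 and 0.360 RPM in adipose tissue, and 0.0912, 0.0785 and 0.0833 RPM in buffalo muscle. Each adipose library lay above each muscle library, and the log2 difference of -0.93 (SE 0.43) had a limma adjusted p = 0.241. Its main circRNA spans 838 bases on chromosome 14, from 67763758 to 67764595, and held 93.8% of its buffalo muscle reads, 88.5% in cattle muscle and 74.2% in adipose tissue. STK3 took 0.113%, 0.0817% and 0.112% of all junction reads in buffalo muscle and 0.0453%, 0.0442% and 0.0320% in cattle muscle, without overlap and with no test across the tables.

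Of the protein kinase C hosts, PRKCE, a calcium-independent isoform, was the most abundant, at 0.265, 0.426 and 0.224 RPM in cattle muscle, 0.326, 0.538 and 0.129 RPM in adipose tissue, and 0.0608, 0.0314 and 0.05 RPM in buffalo muscle. Its log2 difference between the cattle tissues was 0.00 (SE 0.44, limma adjusted p = 1), with a 95% interval from -0.91 to 0.91. ROCK2, a kinase of the actin cytoskeleton, was at 0.0529, 0.118 and 0.196 RPM in cattle muscle and 0, 0.0269 and 0.0515 RPM in adipose tissue. These did not overlap, but with 14 reads against 3 the pooled ratio of 4.55 had a counting interval from 1.27 to 24.7 and the limma adjusted p was 0.339. Adipose library 3 held 2 of the 3 adipose reads, so this ratio depends on single libraries. ROCK2 passed the filter only with its muscle libraries, so nothing is read from its test. PRKD3, the leading protein kinase D host in cattle, had 5 reads in each cattle tissue and was not tested.

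The WNK kinases control ion transport and cell volume. WNK1 was at 0.185, 0.213 and 0.252 RPM in cattle muscle and 0.109, 0.296 and 0.0257 RPM in adipose tissue, with overlap (log2 difference 0.53, SE 0.44, limma adjusted p = 0.617). WNK2 was at 0.265, 0.0473 and 0.0840 RPM in cattle muscle, with no read in the 3 adipose libraries, and its muscle level was at least 4.97-fold the level of 3 reads over the adipose group. Library 1 held 10 of its 15 muscle reads, and without it the bound was 2.47-fold. WNK2 passed the filter through muscle alone, so nothing is read from its test, and it was singled out after its values were seen. MARK3, a microtubule-affinity-regulating kinase, differed by 0.30 (SE 0.46, limma adjusted p = 0.803).

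The hosts that fit the rule by name alone included MAPKAP1, a subunit of the mTOR complex 2, which was likewise singled out after its values were seen. It was at 0, 0.118 and 0 RPM in cattle muscle and 0.163, 0.215 and 0.180 RPM in adipose tissue, without overlap. The log2 difference of -1.14 (SE 0.42) was the lowest of the 35 and had a limma adjusted p = 0.126. MAPKAP1 passed the filter only with its adipose libraries, so nothing is read from its test. CDKAL1, a tRNA-modifying enzyme, differed by -0.15 (SE 0.45, limma adjusted p = 0.895) and the centrosomal protein CDK5RAP2 by -0.20 (SE 0.43, limma adjusted p = 0.855).

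Both species were next set side by side in muscle. The summed kinase level was 1.46, 1.85 and 1.13 RPM in buffalo muscle and 8.04, 10.2 and 10.8 RPM in cattle muscle, a 6.54-fold ratio of means, beside 6.62-fold for all junctions, a ratio close to theirs. Of the 45 hosts with reads in buffalo muscle, 41 (91.1%) also had reads in cattle muscle, which had 67, beside 82.5% of the 2397 hosts of any kind in buffalo muscle. MAP3K3, PRKD2, STK36 and STK40 were read in buffalo muscle but not in cattle muscle, on at most 0.05 RPM in any library. Across the 41 shared hosts, the share of junction reads in buffalo muscle and in cattle muscle had a Spearman rho of 0.63, as a description across genes that share libraries and rest on few reads.

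MAPK8 and PRKAA2 took overlapping shares of the junction reads in both species. MAPK8 was at 0.397%, 0.327% and 0.268% in buffalo muscle and 0.492%, 0.228% and 0.283% in cattle muscle. PRKAA2 was at 0.359%, 0.408% and 0.157% in buffalo muscle and 0.408%, 0.232% and 0.279% in cattle muscle. The species overlapped for both hosts. MAP2K6 overlapped too, at 0.0755%, 0.0163% and 0.157% in buffalo muscle and 0.0194%, 0.0368% and 0.0959% in cattle muscle.

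Identical start and end coordinates in both muscles were found for 37 kinase junctions, 48.7% of those in buffalo muscle and 21.0% of those in cattle muscle, beside 47.1% and 18.6% for all junctions. These 37 carried 75.9% of kinase reads in buffalo muscle and 67.0% in cattle muscle, beside 60.0% and 50.7% of reads for all junctions. They included the main junctions of MAPK8, PRKAA2, STK3, MAPKAPK5, CDK13, CSNK1G3, MAP2K6, PRKCE and MAP4K5. The last, from 43428709 to 43429315 on chromosome 10, spans 607 bases.

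In structure, kinase junctions in the cattle table lay close to the rest, as a description. Their median span was 10831 bases, beside 10100 for all, and 89.0% were of exonic type, beside 87.5%. A single read in all 6 libraries was the whole evidence for 33.7% of them, beside 39.0% of all junctions. Of the 45 kinase hosts with at least 3 junctions, 73.3% had a donor and 75.6% an acceptor used by more than 1 junction, beside 72.6% and 78.9% of such hosts overall. The shared donors of PRKAA2 and MAPK8 and the shared acceptors of CSNK1G3 and MAP3K5 are cases of what most hosts with several junctions showed.

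For buffalo muscle, the mRNA table gave transcript levels in FPKM (fragments per kilobase of transcript and M fragments), and 81 of 81 hosts were matched. The transcripts named for a kinase host were summed where there was more than 1. The 45 hosts with a circRNA read had a median of 13.4 FPKM and the 36 without had 5.26 FPKM. The median over all listed transcripts, each taken singly and not summed by gene, was 3.07 FPKM. Host mRNA and circRNA levels had a Spearman rho of 0.32 over the 81 hosts, as a description across genes measured in the same libraries. PRKAA2 ranked high on both, with an mRNA at 92.2, 72.3 and 71.3 FPKM, the fifth among the hosts. MAPK8, first in circRNA, was at 11.7, 12.2 and 12.4 FPKM and ranked 37 in mRNA, and STK3, the third in circRNA, was at 12.1, 8.95 and 6.86 FPKM and ranked 48. Conversely, PRKACA, the catalytic subunit of the cyclic AMP-dependent kinase, had the highest mRNA, at 143, 119 and 117 FPKM, with no junction read, and its regulatory partner PRKAR2A had 129, 122 and 126 FPKM with 1 junction read.

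**Figure D5:**
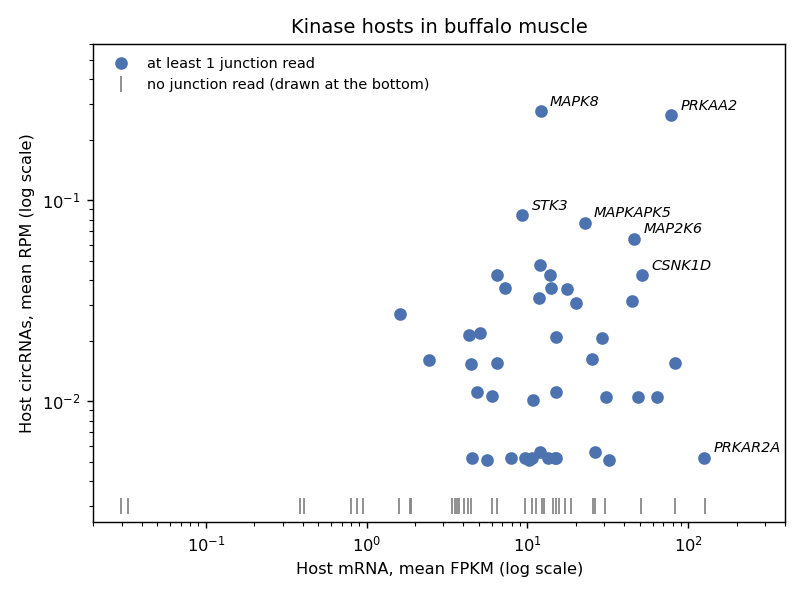
Mean host mRNA level (FPKM, x axis, log scale) against mean summed circRNA level (RPM, y axis, log scale) of the kinase hosts in buffalo muscle, over 3 libraries. Circles are the 45 hosts with a junction read, ticks at the bottom are hosts without one, and STK31, listed at 0 FPKM, is not drawn. MAPK8 stands above hosts of like mRNA level, and PRKAR2A combines a high mRNA level with 1 junction read.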

How the data were processed

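RNA sequencing of 9 libraries was used (TRIzol RNA, TruSeq RNA LT Sample Prep Kit v2). Per the labels and the study, the authors trimmed with Trim Galore, mapped buffalo and cattle reads alike to the cattle genome UMD3.1 by STAR, and assembled transcripts with Cufflinks 2.2.1. The circRNA caller is not given in the sources used here. As deposited, circRNA values are RPM for each back-splice junction and mRNA values, also deposited, are FPKM for each transcript. The 9 columns of buffalo adipose tissue, which match no sample label here, were not used.

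Each RPM value was a whole multiple of 1 step within a tolerance of 0.01 (100% of values), taken as 1 read, and reads and library sizes were derived from it. RPM of one symbol's junctions were summed per host. Cattle tissues were compared with limma 3.58.1 (two-sided, Benjamini-Hochberg over all features tested, threshold 0.05) on log2(RPM + 0.1), which understates the change of low values, for features with at least 2 reads in 3 libraries. On simulated reads with 200 hosts changed 4-fold, limma recovered 47.0% with 4.07% false calls. These were negative binomial reads in 3 draws at a set dispersion of 0.1, not one estimated from these libraries. The rates for the real reads may therefore differ. On the recovered reads, edgeR 4.0.16 called 171 hosts and DESeq2 1.42.0 called 138, beside 133 with limma. Pseudocount, filter, scaling, replicate block and left-out libraries were varied. Replicate libraries of a group differed by more than sampling noise (chi-square per degree of freedom 2.05 to 3.67).

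The members, gene lists and tests were chosen with earlier results of these data known. Named hosts were the 8 most abundant per group, those called, the top of each family, the hosts of the 5 most abundant junctions per group and of the 12 most read junctions shared by both species, and the 5 hosts with most junctions. Wilson and exact binomial intervals and 3-read floors cover counting error only, since reads carry no molecular identifiers. Gene counts were taken from RefSeq (ARS-UCD2.0), by symbol only. The test of the main junction's share was added after the data were seen. No sequences are printed.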

Additional observations from a re-analysis of the deposited data

How the results depend on the processing

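The PRKAA2 call and the call of both its circRNAs held under each alternative run. Host calls numbered 133, and 72 with a pseudocount of 1 RPM, and 58 to 145 with 1 library left out (80, 76 and 58 without cattle muscle 1, 2 and 3). Junction calls numbered 123, and 62 with a pseudocount of 1 RPM, and 25 to 142 with 1 library left out (46, 25 and 30 without cattle muscle 1, 2 and 3). Kinase hosts called higher in muscle numbered 1, and 2 on the junction total scale, 3 with edgeR, and 1 to 2 with 1 library left out. The third host with edgeR was WNK2, which passed the filter through muscle alone. MAP2K6, the host called beside PRKAA2 in these runs, passed it only with its muscle libraries. Kinase junctions called numbered 2, and 3 with the block, edgeR and DESeq2, where a MAP2K6 junction read in muscle alone joined, and nothing is read from these additional calls. Kinase hosts called higher in adipose tissue numbered 0, and 3 on the junction total scale. With the replicate number of the labels as a block, host calls were 174, junction calls 203 and kinase hosts higher in muscle 2 (MAP2K6 joined). Deviations of same-numbered cattle libraries correlated at 0.08, 0.06 and 0.01 for hosts and at 0.12, 0.10 and 0.03 for junctions, not over 0.1 in every pair. The number was therefore not taken as pairing, although each library correlated best with its own number. Per the study, muscle and adipose RNA came from 3 cattle, so the tissues may share animals, but no label says that a number marks 1 animal.

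Counting only junctions with 2 or more reads in a library, 39 were detected in buffalo, 97 in cattle muscle and 116 in fat, and with all junctions but 1 library left out 50 to 63, 112 to 158 and 126 to 151, lowest without library 2 in both muscles. The adipose share was 2.31% for catalytic subunits only and 2.61% for junctions with 2 or more reads. PRKCE, near 0, turned to -0.020 (pseudocount of 1 RPM), -0.29 (junction total scale), -0.036 (edgeR) and -0.075 (DESeq2), and MAP4K5 to -0.15 (junction total scale). With 1 library left out, the differences ranged from -0.55 to 0.059 for CDK13, -0.40 to 0.34 for PRKCE, -0.29 to 0.42 for MAP4K5 and -0.10 to 0.79 for MARK3. The causes were not tested.

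Depth limits what was seen. In each library 31.0% to 58.7% of kinase junctions had a single read, and 39 of the 74 kinase hosts in the cattle table did not enter the test.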

Other observations

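Beyond the naming rule, a list of 127 other serine/threonine kinase genes was read in the same test. Of these, 43 passed the filter on low values, and 1 was called by limma, higher in cattle muscle, beside 5.22% of all hosts tested that were called in that direction. The called host was BMPR2, a receptor for bone morphogenetic proteins, at 0.185 to 0.560 RPM in cattle muscle and 0 to 0.161 RPM in adipose tissue (log2 difference 1.60, SE 0.46, limma adjusted p = 0.0325). BMPR2 was not called with DESeq2, with a pseudocount of 1 RPM, with no filter on low values, or without cattle muscle 3, adipose 1 or adipose 3. PDPK1, which acts downstream of insulin, was at 0.568 to 1.30 RPM in muscle and 0.154 to 0.376 RPM in adipose tissue, without overlap, and had a limma adjusted p = 0.0966. It was called with edgeR and with the replicate number as a block.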
